A study of Mus musculus with 4 samples.

Results

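The genes described here are 10 interleukin and cytokine ligands and receptors, Il6, Il11, Lif, Csf1, Il33, Il34, Il1rl1, Il1r1, Il17ra and Il17rb, out of 54532 genes in the deposited table. They were chosen by name, with earlier results of these data known, and each matched 1 row. RNA was sequenced from cells of the mouse podocyte cell line MPC5, a conditionally immortalized line that is grown with interferon-γ and left to differentiate without it. Saline was given to the control group (2 libraries), and the IL-12 treatment group (2 libraries) received IL-12, at 400 ng/ml, over 6 h. Both groups come from this single cell line, and the sources used here do not say whether replicate libraries are from separate cultures, so the p-values measure the spread between these libraries, which may be technical.

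Of 11 podocyte markers, 6 could be tested, of which 4 rose, among them Podxl, Actn4 and Nes, and Synpo fell, and their part in the results given here was not tested. However, the slit diaphragm gene Nphs1 had 0 to 1 counts per library, and Ptpro and Tcf21 had 0 in every library. The libraries held 18355379 to 20098012 counts, so a floor of 3 counts corresponds to 0.149 to 0.163 CPM (counts scaled to the library total). This limit covers counting error only. T and NK cell markers were almost absent (Cd3e, Cd3d, Cd2, Ncr1 and Ifng had 0 counts), and Il12a and Il12b had 0 counts too. Of the IL-12 receptor genes, Il12rb1 had 8 to 26 counts per library and Il12rb2 had 0 to 4. In such bulk samples, fewer cells that express a gene and less RNA per cell cannot be told apart.

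The members belong to 4 cytokine systems. Il6, Il11 and Lif encode ligands that signal through the shared receptor chain gp130 (Il6st) and the JAK-STAT pathway. Csf1 and Il34 encode the alternative ligands of the CSF-1 receptor, which sustains macrophages, including those of the kidney. Il33 encodes an IL-1 family cytokine that is kept in the nucleus and released on injury, and Il1rl1 encodes its receptor ST2, made both as a membrane receptor and as a soluble decoy. Il1r1 encodes the signalling receptor for IL-1. Il17ra is the common chain of the IL-17 receptors, and Il17rb pairs with it to bind IL-17B and IL-25.

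Il1rl1 rose and Il17rb fell, each by more than 2-fold, and these were the largest changes among the members. Lif, Il33 and Csf1 rose by less than 2-fold, and Il1r1 fell slightly. Il11, Il34 and Il17ra did not pass the test, and Il6 was too low to be tested. Of the 9 members tested by edgeR's quasi-likelihood test, 4 were higher with IL-12 at an adjusted p below 0.05, against 16.1% of the 14095 genes tested, and 2 were lower, against 14.4%. Without IL-12 replicate 1, 1404 genes were higher and 1124 lower of 14630 tested, against 2267 and 2030 with all libraries, and 3 members were higher and 2 lower. With a change of over 2-fold as well, 2 members were called, against 1.61% of all genes tested. The median log2 fold change was 0.54 over the 9 members and -0.0022 over all genes tested. Because the members were chosen with earlier results of these data known, their shares and median are descriptions and do not test the list. In scaled counts the groups did not overlap for 7 of the 9 members, against 8861 of the 14095 genes tested. Groups that do not overlap were thus common with 2 libraries each. For a single gene the smallest two-sided p that an exact permutation test can reach here is 0.333, and the p-values therefore rest on edgeR's estimate of the spread, which it shares across genes.

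The upstream sequences of the members that changed most are shown so that their starts can be compared. Of the 10 members, 8 had entries in RefSeq's promoter windows (GRCm38.p6), with 12 starts in all. For each, the 250 bases before the start were searched on both strands for 7 motifs. AP-1 was searched as TGANTCA. The cyclic AMP response element was searched as TGACGTCA. The STAT motif was searched as TTCNNNGAA. The TEAD motif was searched as GGAATG. The TATA box was searched as TATAAA, and the CArG box and the NF-κB motif by their usual consensus. Capitals mark the matches. Il17rb lies on the minus strand and Chdh on the plus strand, and their starts lie 127 bases apart. The stretch between them is chr14:30008897-30009022, shown on the minus strand, and its capitals are an AP-1 match. Il1rl1 has one start at the beginning of the gene and one further in, and the windows are chr1:40429320-40429569 and chr1:40439379-40439628, both on the plus strand. Capitals in the second are a TEAD match. Il33 also has a distal and an internal start, with the windows chr19:29924863-29925112 and chr19:29945540-29945789 on the plus strand, and both hold a TATA and a TEAD match. The Lif window is chr11:4257318-4257567 on the plus strand, with an AP-1 and an NF-κB match.
Il17rb to Chdh: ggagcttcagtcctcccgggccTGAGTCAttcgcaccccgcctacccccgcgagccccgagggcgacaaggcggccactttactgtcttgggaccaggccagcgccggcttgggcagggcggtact
Il1rl1 first start: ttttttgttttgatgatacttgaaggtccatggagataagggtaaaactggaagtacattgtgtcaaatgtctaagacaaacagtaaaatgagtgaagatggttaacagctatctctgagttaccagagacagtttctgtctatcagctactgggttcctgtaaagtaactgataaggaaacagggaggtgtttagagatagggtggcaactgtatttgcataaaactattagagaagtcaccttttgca
Il1rl1 second start: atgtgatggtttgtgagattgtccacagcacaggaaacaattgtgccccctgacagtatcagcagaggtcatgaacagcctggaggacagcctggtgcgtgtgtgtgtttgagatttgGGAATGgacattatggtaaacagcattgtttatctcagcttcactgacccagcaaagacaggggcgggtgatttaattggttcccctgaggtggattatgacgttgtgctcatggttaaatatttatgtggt
Il33 first start: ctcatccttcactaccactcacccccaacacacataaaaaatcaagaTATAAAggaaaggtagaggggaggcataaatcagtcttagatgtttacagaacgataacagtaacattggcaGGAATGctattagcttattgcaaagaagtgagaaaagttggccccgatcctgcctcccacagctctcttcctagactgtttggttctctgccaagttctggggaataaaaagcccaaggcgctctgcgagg
Il33 second start: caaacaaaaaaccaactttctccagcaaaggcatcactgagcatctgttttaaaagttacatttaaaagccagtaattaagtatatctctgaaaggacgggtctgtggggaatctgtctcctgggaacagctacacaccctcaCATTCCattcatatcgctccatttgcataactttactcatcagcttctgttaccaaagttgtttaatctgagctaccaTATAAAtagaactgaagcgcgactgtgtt
Lif: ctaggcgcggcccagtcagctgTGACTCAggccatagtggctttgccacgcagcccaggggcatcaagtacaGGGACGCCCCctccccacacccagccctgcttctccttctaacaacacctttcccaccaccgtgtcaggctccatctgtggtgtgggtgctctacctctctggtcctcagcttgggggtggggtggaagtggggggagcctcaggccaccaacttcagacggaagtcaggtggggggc

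The matches are descriptions of letters and not of binding. AP-1 letters were in 4 of the 12 windows, those of Il6, Lif, Il17rb and the second start of Il11, and in 6.75% of the 32851 windows in the RefSeq table. TEAD letters were in 4 of the 12 (both starts of Il33, and the second starts of Il1rl1 and Il1r1) against 12.6%, the NF-κB motif in 4 (Il6, Lif, Csf1 and the second start of Il1r1) against 7.25%, and TATA in 2 (both starts of Il33) against 12.4%. CRE, STAT and CArG letters were in 0 of the 12. In the second Il1r1 window the NF-κB match overlaps a TEAD match. For stretches of 126 bases, as between Il17rb and Chdh, the AP-1 share of all windows was 3.62%. The windows with AP-1 letters thus belong to a gene that rose (Lif), a gene that fell (Il17rb), 1 that was not past the threshold (Il11) and 1 that was not tested (Il6).

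The levels of the members spanned more than 3 orders of magnitude per length of gene, in FPKM as deposited by the authors. In the control group the order was Csf1 (182 ± 1.41 FPKM, SD, n = 2), Il1r1 (26.9 ± 0.142), Lif (19.6 ± 0.601), Il1rl1 (5.87 ± 0.316), Il17rb (4.11 ± 0.377), Il17ra (3.15 ± 0.0741), Il34 (1.28 ± 0.0523), Il33 (0.926 ± 0.146), Il11 (0.224 ± 0.0566) and Il6 (0.0544 ± 0.0460). The values of neighbours in this order did not overlap between their 2 libraries. In the IL-12 treatment group Lif (31.0 ± 2.28 FPKM, SD, n = 2) stood above Il1r1 (22.7 ± 0.104), and Il17rb moved from the fifth place to below Il33. There the ranges of Il34 (1.84 and 1.89 FPKM) and Il33 (1.88 and 1.59 FPKM) overlapped, so their order was not resolved. The plot of levels shows both groups.

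**Figure D1:**
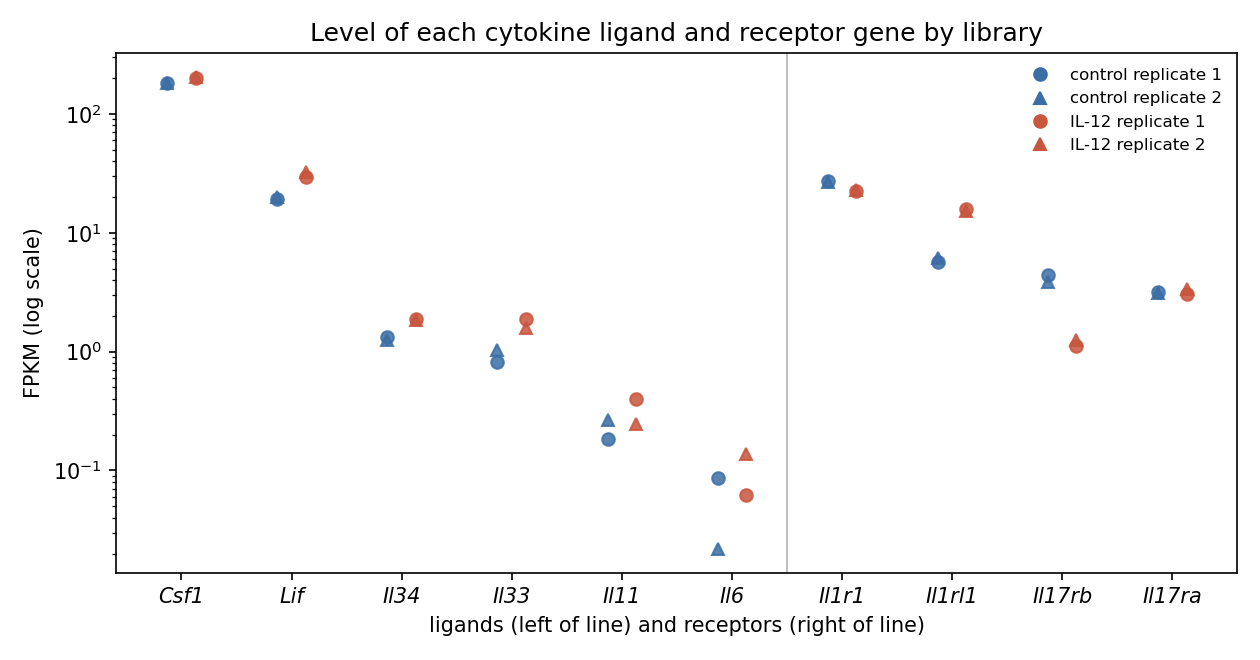
Level of each member in FPKM on a log axis, with 1 point per library (blue, control; red, IL-12; circles, replicate 1; triangles, replicate 2). The groups of Lif, Il33, Il34, Csf1, Il1rl1, Il1r1 and Il17rb do not overlap, those of Il11, Il6 and Il17ra do, and Csf1 lies far above the rest at 181 to 206 FPKM. Of all 14095 genes tested, 8861 had groups that did not overlap in scaled counts.

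Among the ligands, Lif showed the clearest increase. Lif (ENSMUSG00000034394, chromosome 11 from 4257557 to 4272514, GRCm38) encodes leukemia inhibitory factor, which binds a receptor of Lifr and gp130. It had 1581 and 1642 counts with saline and 2529 and 2566 with IL-12. Both IL-12 libraries were above both controls, and the log2 fold change was 0.66 (SE, the standard error, 0.05, adjusted p = 1.78e-08 from edgeR's quasi-likelihood test), or 1.58-fold. The other gp130 ligands among the members were scarcely covered. Il11 (ENSMUSG00000004371, chromosome 7 from 4772373 to 4782857) had 7 and 10 counts with saline and 16 and 9 with IL-12. These values overlap, and the log2 fold change of 0.54 had a 95% interval from -0.56 to 1.65 (adjusted p = 0.488 by that edgeR test), an interval that holds both a 2-fold increase and a decrease. Tmem190 starts 80 bases from Il11 on the other strand and had 29 counts over the 4 libraries. Il6 (ENSMUSG00000025746, chromosome 5 from 30013114 to 30019981) had 4 and 1 counts with saline and 3 and 6 with IL-12. With 14 counts in all it stayed under the filter on low counts, so its change was not tested. A small change in Il6 would not be detectable at this depth. A230098N10Rik, which starts 4316 bases from Il6, had 0 counts.

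Csf1 was the most abundant member and changed least among those that passed the test. Csf1 (ENSMUSG00000014599, chromosome 3 from 107741048 to 107760469) had 18287 and 17988 counts with saline and 21130 and 19661 with IL-12. The IL-12 libraries were higher after scaling too, with a log2 fold change of 0.17 (SE 0.03, adjusted p = 5.48e-05 by that edgeR test), or 1.12-fold. Il34, the other ligand of the CSF-1 receptor (ENSMUSG00000031750, chromosome 8 from 110741829 to 110805924), had 49 and 46 counts with saline and 73 and 65 with IL-12. Its groups did not overlap, but the log2 fold change of 0.54 (95% interval 0.0744 to 0.9957) had an adjusted p value of 0.0751 by that edgeR test. With limma on log2(FPKM + 1) it passed, with an adjusted p of 0.0312. It passed in 2 of 16 alternatives, both limma on FPKM, and the DESeq2 Wald test gave an adjusted p of 0.313. Il34 shares 75 and 22 exonic bases with the antisense genes Gm15895 and Gm15894, which had 14 and 8 counts over the 4 libraries against 233 for Il34.

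Il33 and the gene of its receptor both rose. Il33 (ENSMUSG00000024810, chromosome 19 from 29925114 to 29960718) had 45 and 56 counts with saline and 107 and 83 with IL-12. Both IL-12 libraries were above both controls, with a log2 fold change of 0.91 (SE 0.21, adjusted p = 0.00234 from edgeR's quasi-likelihood test), or 1.87-fold. Without IL-12 replicate 1 the log2 fold change was 0.78 and the adjusted p was 0.0718, in a fit that has 1 IL-12 library and takes the spread from the controls. The remaining IL-12 library, at 1.59 FPKM, was above both controls, at 0.822 and 1.03 FPKM. Il1rl1 (ENSMUSG00000026069, chromosome 1 from 40429570 to 40465415) had 738 and 792 counts with saline and 2151 and 1908 with IL-12. The groups were far apart, with a log2 fold change of 1.40 (SE 0.05, 95% interval 1.29 to 1.52, adjusted p = 8.75e-13 by that edgeR test), or 2.65-fold. Il1rl1 had the smallest p among the members and stood at rank 15 of the 14095 genes tested. The annotation lists 5 transcripts of Il1rl1, and counts per gene cannot tell the soluble from the membrane form. Per length, Il1rl1 was 5.65 and 6.09 FPKM in the control libraries and 15.8 and 15.3 FPKM in the IL-12 libraries, above its ligand Il33 in every library.

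Il1r1 moved the other way. Il1r1 (ENSMUSG00000026072, chromosome 1 from 40225080 to 40317257) had 3259 and 3217 counts with saline and 2850 and 2623 with IL-12. Both IL-12 libraries were below both controls, by a log2 fold change of -0.24 (SE 0.04, adjusted p = 8.78e-05 by that edgeR test), which is 1.18-fold lower. Gm38070, which lies within Il1r1 on the same strand and shares 0 exonic bases with it, had 3 counts over the 4 libraries. Il1rap, the accessory chain that Il1r1 and ST2 share, had 316, 309, 368 and 334 counts in the order control replicates 1 and 2 and IL-12 replicates 1 and 2, with a log2 fold change of 0.17 (adjusted p = 0.212 by that edgeR test).

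Il1r1 and Il1rl1 lie in a row of 6 receptor genes on the plus strand of chromosome 1, in the order Il1r2, Il1r1, Il1rl2, Il1rl1, Il18r1 and Il18rap. Il18rap, the accessory chain of the IL-18 receptor (chromosome 1 from 40515362 to 40551705), had 53 and 45 counts with saline and 158 and 146 with IL-12. It rose by a log2 fold change of 1.63 (SE 0.18, adjusted p = 1.05e-06 by that edgeR test). Il18r1, the ligand-binding chain of that receptor, lies between Il1rl1 and Il18rap and had 0, 0, 0 and 3 counts. The decoy receptor gene Il1r2 had 0 to 1 counts and the IL-36 receptor gene Il1rl2 had 0 to 1. Within this row, then, Il1rl1 and Il18rap rose, Il1r1 fell and the remaining genes were at or under the limit of 3 counts.

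**Figure D2:**
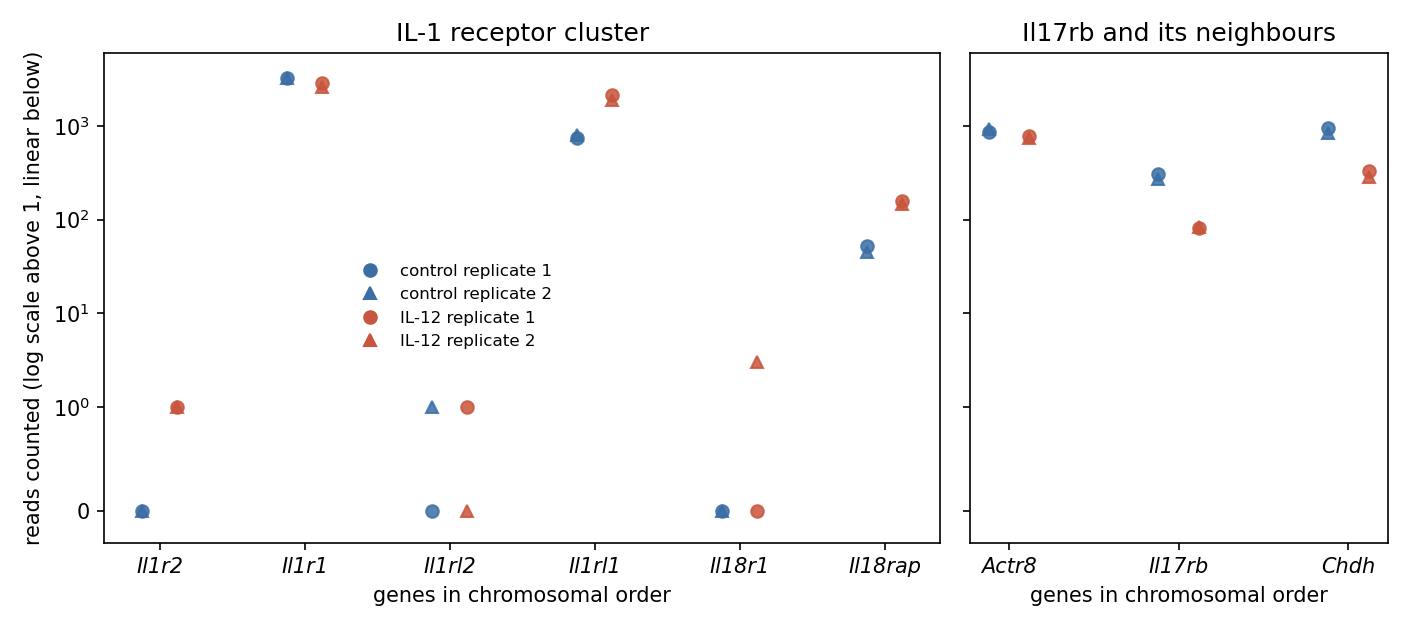
Reads counted per library for the 6 genes of the IL-1 receptor row (left) and for Il17rb and its neighbours (right), in chromosomal order, on an axis that is logarithmic above 1 and linear below. Il1rl1 and Il18rap are higher in both IL-12 libraries (red) than in both controls (blue), and Il17rb and Chdh are lower.

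Il17rb had the largest change of any member. Il17rb (ENSMUSG00000015966, chromosome 14 from 29996135 to 30008896) had 308 and 269 counts with saline and 82 and 84 with IL-12. The groups were far apart, with a log2 fold change of -1.80 (SE 0.14, 95% interval -2.09 to -1.50, adjusted p = 1.37e-08 from edgeR's quasi-likelihood test), which is 3.47-fold lower. Chdh, the choline dehydrogenase gene that starts on the other strand beyond the sequence shown above, had 954 and 844 counts with saline and 328 and 284 with IL-12. Its log2 fold change was -1.56 (SE 0.08, adjusted p = 7.99e-11 by that edgeR test), and its 95% interval of -1.73 to -1.38 overlapped that of Il17rb. The difference between these changes was not tested. Actr8, a chromatin remodelling gene, overlaps Il17rb from the other side on the plus strand and shares 141 exonic bases with it. It had 872, 918, 788 and 752 counts, with a log2 fold change of -0.22 (SE 0.06, adjusted p = 0.0127 by that edgeR test), and it did not pass with the DESeq2 Wald test (10 of 16 alternatives called it). Whether reads were counted by strand is not given in the sources used here, so reads in the shared bases could have been counted for either gene, and the part of this overlap in the value of Il17rb was not tested.

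Il17ra, the partner chain, did not pass the test. Il17ra (ENSMUSG00000002897, chromosome 6 from 120463247 to 120487559) had 526 and 506 counts with saline and 520 and 524 with IL-12. The groups overlapped after scaling, with a log2 fold change of 0.02 (95% interval -0.15 to 0.18, adjusted p = 0.909 by that edgeR test), and the interval holds neither the change of Il17rb nor that of Il1rl1. Per length, Il17rb was above Il17ra in both control libraries (4.38 and 3.85 against 3.20 and 3.10 FPKM) and below it in both IL-12 libraries (1.12 and 1.25 against 3.04 and 3.35 FPKM). Of the ligands of Il17rb, Il25 and Il17b each had 0 counts in every library.

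**Figure D3:**
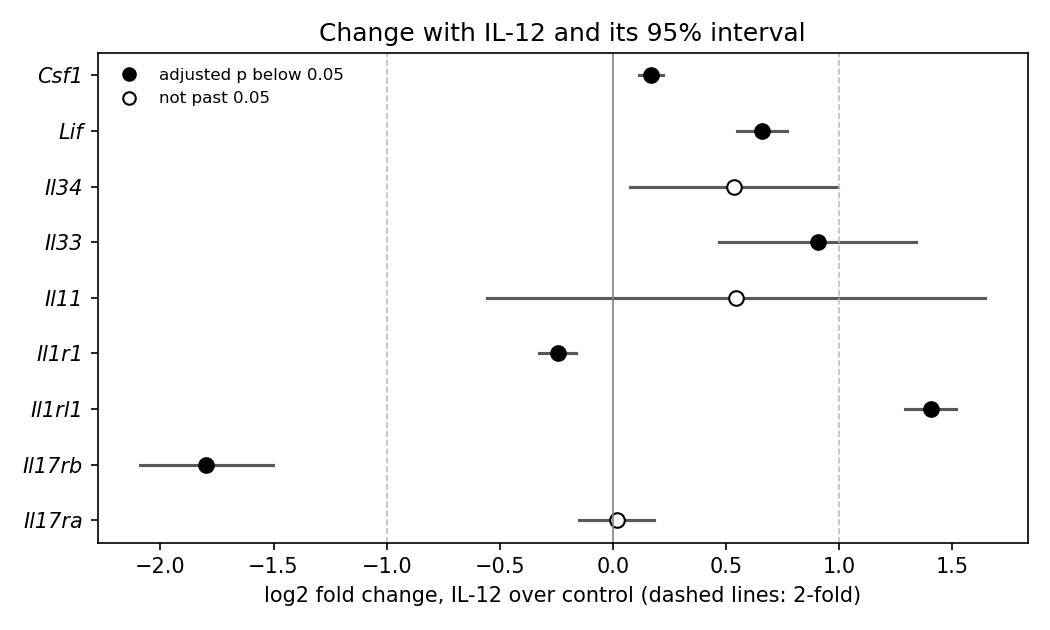
Log2 fold change (IL-12 over control) of the 9 members tested, with the 95% interval computed from the F statistic of edgeR's quasi-likelihood test. Filled points are past an adjusted p of 0.05 and dashed lines mark 2-fold, which Il1rl1 at 1.40 and Il17rb at -1.80 pass with their whole intervals.

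Other genes of the same 4 families were examined from lists of 72 names, of which 68 were in the table. The 4 others are newer symbols of IL-36 genes that the table lists under their older names. Of the 68, 15 had 0 counts in every library and 42 could be tested, and 6 of these rose and 6 fell beside the 16.1% and 14.4% of all genes. Their median log2 fold change was -0.04. Of the relatives, 1 passed 2-fold, which was Il18rap, beside 1.61% of all genes tested. Its log2 fold change ranged from 0.66 to 1.75 over 16 alternatives, so it was not over 2-fold in each. The level of Il18rap was low, at a mean of 0.384 FPKM in the control group and 1.19 FPKM with IL-12.

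In the IL-6 and gp130 family, 17 of 20 relatives were tested, of which 3 rose and 4 fell, beside the 16.1% and 14.4% of all genes tested. The same shares stand beside the counts of the families below. Clcf1, which encodes a ligand that signals through gp130, rose from 49.4 ± 0.0193 to 64.4 ± 1.24 FPKM (SD, n = 2), with a log2 fold change of 0.38 (SE 0.04, adjusted p = 2.13e-07 from edgeR's quasi-likelihood test). Socs3, a feedback inhibitor of gp130 signalling, rose by 0.40 on the log2 scale (adjusted p = 0.00485 by that edgeR test). Without IL-12 replicate 1, and with the DESeq2 Wald test without independent filtering, it did not pass, its highest adjusted p being 0.0655. The genes that fell were Stat3, the transcription factor downstream of gp130 (-0.42), Pias3, an inhibitor of STAT3 (-0.32), the receptor chain Il11ra1 (-0.23) and Il6st itself (-0.22), with adjusted p of 6.61e-07, 1.48e-05, 0.0309 and 7.17e-06 by that edgeR test. Il6st stayed abundant, with 67.4 ± 1.04 FPKM (SD, n = 2) in the control group and 58.1 ± 0.375 FPKM (SD, n = 2) with IL-12, and Il11ra1 was called in 8 of 16 alternatives. The receptor partners Il6ra and Lifr had log2 fold changes of 0.34 and -0.09 and did not pass, with adjusted p values of 0.0907 and 0.663 by that edgeR test.

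The gene of the CSF-1 receptor fell while its ligand Csf1 rose. Csf1r had 405 and 434 counts with saline and 219 and 236 with IL-12, a log2 fold change of -0.88 (SE 0.11, adjusted p = 3.41e-06 from edgeR's quasi-likelihood test), or 1.84-fold lower. Csf1r is also a macrophage marker, and of the 8 macrophage and leukocyte markers it was the only gene of the 2 tested that passed. The others were Cd68 with 89 to 118 counts per library, Ptprc with 1 to 12, and 5 genes under 10 counts in every library, among them Adgre1 and Tyrobp at 0. The summed level of these 8 markers was 27.3 and 29.8 CPM with saline and 16.2 and 20.4 with IL-12. This sum includes Csf1r, which supplied most of the 510 and 556 summed counts with saline and the 325 and 374 with IL-12. It therefore mostly restates the fall of Csf1r. Cd68 had a log2 fold change of 0.07 (adjusted p = 0.823 by that edgeR test). Of the other receptors for these ligands, Ptprz1, which binds IL-34, had 0 counts, and the syndecan gene Sdc1 fell by 0.29 on the log2 scale (adjusted p = 2.47e-06 by that edgeR test). In this family 4 of 8 relatives were tested, 0 rose and 2 fell.

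In the IL-1 family, 15 of 28 relatives in the table were tested, 2 rose and 0 fell. Beside Il18rap, the kinase gene Irak2, which acts below the IL-1 receptors, rose from 260 and 318 to 464 and 431 counts, with a log2 fold change of 0.63 (SE 0.10, adjusted p = 0.000101 from edgeR's quasi-likelihood test). The other 13 tested did not pass. In the IL-17 family, 6 of 12 were tested and only Traf3, a negative regulator of IL-17 receptor signalling, passed, rising by 0.21 on the log2 scale (adjusted p = 0.00191 by that edgeR test). Il17rc, the chain with which Il17ra binds IL-17A, had 2687, 2666, 2762 and 2311 counts (adjusted p = 0.204 by that edgeR test). Of 5 genes that IL-1 or IL-17 induces in many cells, 4 were tested. Cebpd rose by 0.24 (adjusted p = 0.0326 by that edgeR test, called in 7 of 16 alternatives), and the other 3 did not pass.

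**Figure D4:**
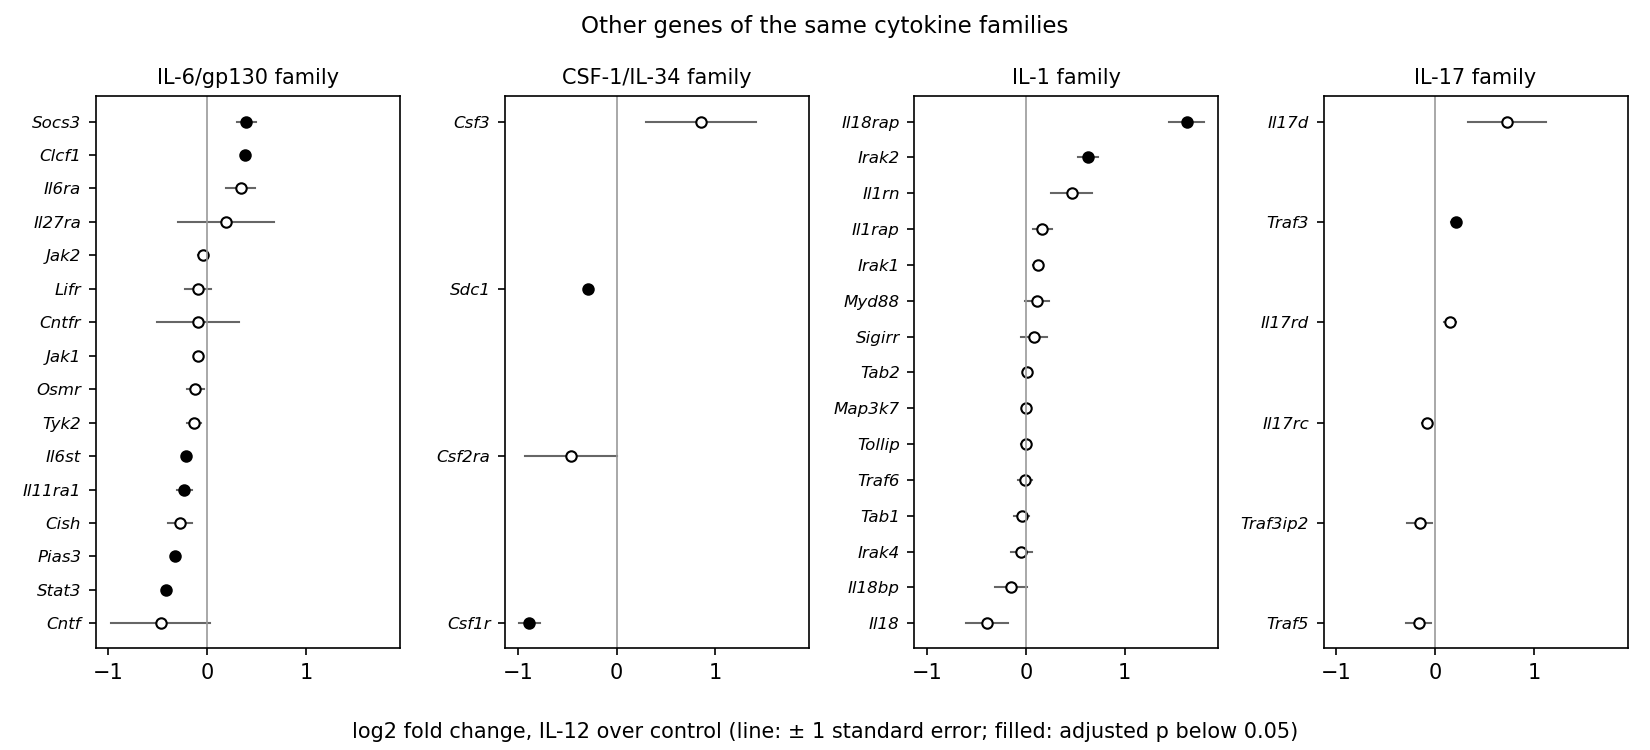
Log2 fold changes (IL-12 over control, with 1 SE) of 41 of the 42 tested relatives by family, filled where the adjusted p was below 0.05. Il18rap at 1.63 and Csf1r at -0.88 lie outermost among the filled points.

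Il1rl1 is also strongly expressed in mast cells, so their markers were examined. Of 6 mast cell markers, Fcer1a, Cpa3 and Tpsb2 had 0 counts in every library and Kit and Cma1 had 0 to 2. Only Ms4a2 was covered, and it fell from 1018 and 1103 to 361 and 319 counts (log2 fold change -1.64, adjusted p = 1.01e-11 from edgeR's quasi-likelihood test), opposite to Il1rl1. The summed level of the list was 1019 and 1103 counts with saline and 361 and 322 with IL-12. All 5 endothelial markers stayed under 10 counts in every library, 3 of 5 mesangial and fibroblast markers did, and so did 4 of 5 tubular markers. Of the 3 covered genes of these lists, Pdgfrb rose by 0.23 and Lrp2 fell by 0.27 on the log2 scale, and 1 did not pass. Their part in the results above was not tested.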

How the data were processed

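RNA-sequencing of 4 libraries of mouse podocytes was analysed, 2 from the control group and 2 from the IL-12 treatment group, grouped by their titles. The authors deposited raw counts per gene and FPKM values, in which each count is divided by gene length and a scaled library size. Relative to the total counts, that scaling multiplies values by 0.985 and 0.989 in the control libraries. In the IL-12 libraries the factors are 1.017 and 1.016. The submitters' processing notes name HISAT2, StringTie and the build mm9, with no version or role. However, 98.3% of 54495 gene coordinates, and those of 9 of the 10 members, equal GENCODE M21 (GRCm38), and coordinates are given as in the tables. Il11 differs at one end only. Strand use and the handling of multiply mapped reads are not given in the sources used here. These steps set how overlapping genes share reads.

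Counts were filtered with edgeR's filterByExpr (minimum count 10, total 15), scaled by TMM and tested with the quasi-likelihood test in edgeR 4.0.16 under R 4.3.3, with Benjamini-Hochberg adjustment over 14095 genes. A call needed an adjusted p below 0.05, and over 2-fold where stated. Alternatives used limma 3.58.1, DESeq2 1.42.0, other scalings and filters, the replicate number as a block, and each library left out. The test was tested on simulated data. The simulated libraries were independent and had the same spread setting for every gene, so they cannot check p-values from replicates that may be technical. Figures were drawn with matplotlib 3.10.9. Counts of replicate libraries differed beyond counting noise (chi-square per degree of freedom 2.20 and 2.52, against 17.9 to 21.6 between groups).

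The members and the lists were chosen with earlier results of these data known. The lists were the relatives, the treatment check, the cell type markers and the motifs. Named genes were all members, relatives past the threshold (at most the 8 with the smallest p in a family), the members' receptor partners, and genes that overlap a member or start within 5000 bases of it. Covered markers are also given. Some genes of these lists are counted but not reported here.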

Additional observations from a re-analysis of the deposited data

How the results depend on the processing

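The counts of members that were higher (4) and lower (2) held in the scaling, filter and test alternatives within 1 gene: 3 to 5 were higher and 2 were lower in each of 16 alternatives. Over 2-fold, 2 members were called with all libraries. The log2 fold change of Il33 was 1.07 without control replicate 2 and 1.02 without IL-12 replicate 2. With a 1.5-fold limit, Lif (1.58-fold) and Il33 (1.87-fold) were called as well, and the share of all genes at that limit was not computed. With the replicate block, 4 members were higher and 2 lower, as without it. What same-numbered libraries have in common is not given in the sources used here. Across 14095 genes their deviations from their group means had a correlation of -0.0323, which does not settle whether they shared a culture or batch. The log2 fold change of Il33 was 0.76 to 1.07 with each library left out. That of Il34 passed with limma on log2(FPKM + 1) and on log2(FPKM + 0.1), with adjusted p of 0.0312 and 0.0409. In the other 14 alternatives Il34 did not pass. The change of Il17ra was below 0 when scaled by total counts alone (-0.0247), without control replicate 2 (-0.0085) and without IL-12 replicate 2 (-0.053), ranged from -0.053 to 0.0871 with each library left out, and did not pass in any alternative. Scaled by total counts alone, 40.5% of all genes past the threshold were higher, against 52.8%, while the median of all genes moved by under 0.1. With a pseudocount of 1 on FPKM, the log2 fold change of Il17rb was -1.22, as that scale compresses low levels. Over 2-fold, the DESeq2 Wald test called 103 genes, DESeq2 without independent filtering 125 and limma on log2(FPKM + 1) 38, on log2(FPKM + 0.1) 141, and the filter of 10 counts in every library 158, against 227, and 144 to 254 were called with 1 library left out. Without the fold limit, 2267 genes were higher and 2030 lower, against 1492 and 1213 by the DESeq2 Wald test, 1456 and 1175 without its independent filtering, 1606 and 1280 by limma on log2(FPKM + 1), 1625 and 1277 on log2(FPKM + 0.1), and 1404 and 1124 without IL-12 replicate 1. Where 1 library was left out, the lone library of its group was assumed to vary like the other group. Il6 and Il11 were limited by depth.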
